A study of Mus musculus with 4 samples.

Results

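The outer, peripheral part of the intraflagellar transport B complex, IFT-B2, is made of 6 proteins in the mouse, encoded by Ift20, Cluap1 (the IFT38 subunit), Traf3ip1 (the IFT54 subunit), Ift57, Ift80 and Ift172. These 6 genes were picked by symbol from a count table of 18471 genes, and all 6 passed the filter on low counts, as did 17300 genes in all. RNA was sequenced from retinas of mouse embryos at embryonic day 19, with 2 libraries labelled wild-type and 2 labelled Foxn3KO, each from 1 genotyped embryo. The Foxn3KO embryos are Foxn3-/- and lack exon 3 of Foxn3, which encodes a forkhead transcription factor; the line is C57BL/6NJ-Foxn3em1(IMPC)Bay/Mmnc. The labels name no Cre driver, treatment or other allele for either group, and the whole retina was extracted, so the values average over all of its cells.

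Intraflagellar transport carries proteins along the microtubules of the cilium in trains built from IFT-A and IFT-B particles. IFT-B is pulled to the ciliary tip by kinesin-2 and its IFT-B1 part forms the core, to which IFT-B2 is attached at the edge. In the photoreceptors of the mature retina the same transport supplies the outer segment, a modified cilium, and mutations in IFT172 cause human skeletal ciliopathies and retinal degeneration.

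Of the 6 member genes, 5 (Ift57, Cluap1, Traf3ip1, Ift172 and Ift80) were higher in the libraries labelled Foxn3KO, by between 1.23-fold and 2.04-fold, and Ift20 did not pass the test. Each of the 5 had an adjusted p under 0.05 (edgeR quasi-likelihood test, Benjamini-Hochberg adjustment across the whole table), and none was lower. By the same rule, 21.9% of all 17300 tested genes were called in either direction, 12.3% higher and 9.66% lower. The median log2 fold change of the 6 members was 0.55, against -0.0047 for all tested genes. Bulk RNA cannot tell a change in the number of cells that express a gene from a change in RNA per cell.

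The members differ in the letters of their promoters, which are shown here as a description. Whether these letters bear on the sizes of the changes was not tested. RefSeq windows on GRCm38.p6, from 250 bases before to 50 bases after the start, were found for 5 of the 6 genes, and Ift80 had no entry. Capitals mark matches to the RFX core GTTGCC or to the X-box, the paired site of RFX transcription factors, searched as GTNNCC and GGNNAC with a spacer of 1 to 3 bases. Both strands were searched for each motif, and an X-box can overlap a core.
Ift57, chr16:49699144-49699293, plus strand: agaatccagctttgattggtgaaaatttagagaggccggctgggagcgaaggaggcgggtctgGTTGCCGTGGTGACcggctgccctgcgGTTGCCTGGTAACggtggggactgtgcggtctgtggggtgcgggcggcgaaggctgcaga
Traf3ip1, chr1:91494518-91494667, plus strand: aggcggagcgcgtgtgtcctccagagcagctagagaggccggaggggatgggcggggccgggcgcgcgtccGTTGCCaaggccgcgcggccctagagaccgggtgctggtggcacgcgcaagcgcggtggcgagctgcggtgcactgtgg
Cluap1, chr16:3908909-3909008, plus strand: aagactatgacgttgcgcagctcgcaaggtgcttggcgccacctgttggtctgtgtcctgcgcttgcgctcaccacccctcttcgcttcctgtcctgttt
Ift172, chr5:31291100-31291129, minus strand: gtatgtcgcactcacGTTGCCtgtgcgtca
Ift20, chr11:78536331-78536360, plus strand: ctacttcccgtgtcgtagtccccgccccct

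The Ift57 window was the only one of the 5 that held an X-box, and it held 2, at positions -87 to -74 and -60 to -48 from the start. Traf3ip1 had a single GTTGCC at -79 to -74, and Ift172 had one at the first transcribed bases, 1 to 6. Neither Cluap1 nor Ift20 had a match to the core or to the X-box. Across all 32851 windows, 12.5% held the core and 3.49% held an X-box. The forkhead motif TGTTTAC was in none of the 5 windows and in 3.65% of all windows. The short forkhead motif GACGC was in the windows of Traf3ip1 and Ift172. It was in 27.2% of all windows, and in at least 1 window of 49.4% of the tested genes.

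**Figure D1:**
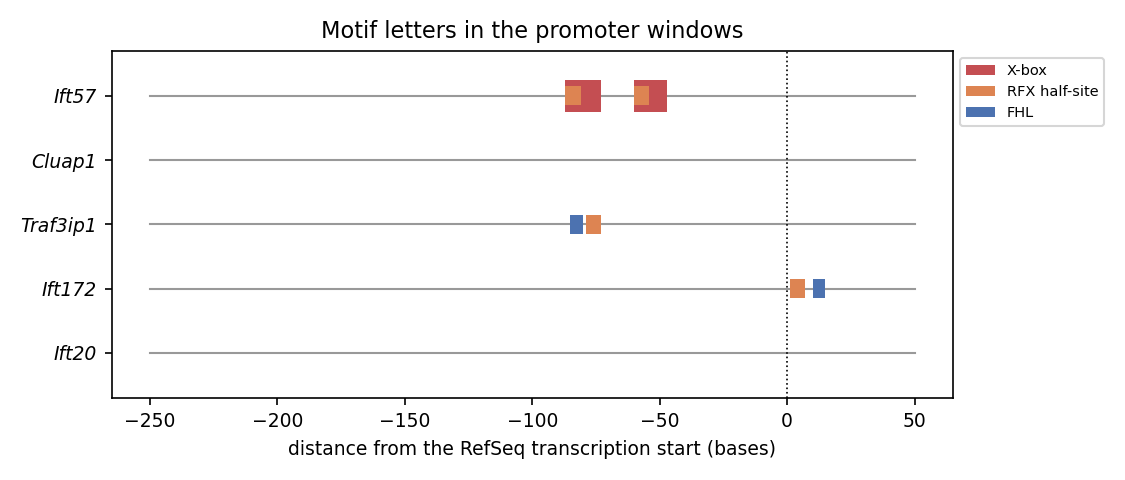
Positions of motif matches in the 5 available promoter windows, as distance in bases from the RefSeq start (dotted line); red blocks are X-boxes, orange blocks the RFX core and blue blocks the short forkhead motif. The 2 X-boxes lie in the Ift57 window, and the Cluap1 and Ift20 windows are empty.

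Depth and tissue were checked before the members were compared. Total counts were 22543531 to 29360129 per library. Of 15 retinal markers such as Rax, Six6 and Pax6, all were detected, 3 were called higher (Six3, Six6 and Sox2) and 3 lower (Hes1, Ccnd1 and Isl1), and their median log2 fold change was 0.03. Their summed level, to which Ccnd1 gave the most, was 6970 to 7480 CPM (reads of a gene per 1000000 counts, scaled with TMM factors). Foxn3 itself was higher in the libraries labelled Foxn3KO, with 4181 and 3219 counts against 2421 and 2712. Gene counts do not resolve exon 3, so they are no check of the deletion, and directions rest on the labels. In wild-type replicate 1 the counts were 83073 for Xist and 0 for Ddx3y, against 9 to 19 for Xist and 1780 to 2317 for Ddx3y elsewhere, so the embryos differ in sex. The 11 lens markers measured, such as Cryaa and Mip, summed to 9.32 and 79.9 CPM in the wild-type libraries and to 363 and 365 CPM in the Foxn3KO libraries, and 10 of them were called higher.

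Ift57 and Cluap1, whose proteins form a coiled-coil pair within IFT-B2, had the largest rises. Ift57 (ENSMUSG00000032965, chromosome 16) was read 633 and 639 times in wild-type and 1470 and 1107 times in Foxn3KO. After scaling, its level was 25.5 and 23.5 CPM against 50.5 and 49.4 CPM, so the groups were far apart relative to their replicates. The log2 fold change was 1.03 (SE 0.067, edgeR adjusted p = 2.08e-09), or 2.04-fold. Only 3.35% of tested genes had a larger log2 fold change.

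Cluap1 (ENSMUSG00000014232, chromosome 16) had 592 and 670 counts in wild-type and 1314 and 968 in Foxn3KO. Its level was 23.9 and 24.7 CPM in wild-type and 45.1 and 43.2 CPM in Foxn3KO. These ranges do not overlap, and the Foxn3KO libraries differ from each other by 1.04-fold. The log2 fold change was 0.86 (SE 0.067, edgeR adjusted p = 2.22e-08), a 1.82-fold rise.

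Traf3ip1 and Ift20 encode the other coiled-coil pair of the complex, and their transcripts did not change alike. Traf3ip1, whose product also binds microtubules and the signalling adaptor TRAF3, is ENSMUSG00000034292 on chromosome 1. It had 917 and 1002 counts in wild-type and 1804 and 1372 in Foxn3KO. Its level was 37.0 and 36.9 CPM against 62.0 and 61.3 CPM, the tightest replicates of any member in wild-type. The log2 fold change was 0.74 (SE 0.058, edgeR adjusted p = 2.39e-08), or 1.67-fold.

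Ift20 (ENSMUSG00000001105, chromosome 11), the subunit that is also found at the Golgi and takes part in sorting membrane proteins to the cilium, had 1071 and 1063 counts in wild-type and 1284 and 952 in Foxn3KO. Its level was 43.2 and 39.1 CPM against 44.1 and 42.5 CPM, so the groups overlap. The log2 fold change was 0.07 (SE 0.066, edgeR adjusted p = 0.470). Its wild-type libraries differ by 1.10-fold, the widest replicate gap among the members. Without wild-type replicate 1 the value was 0.15 and without wild-type replicate 2 it was 0.01, and neither passed.

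Ift172 and Ift80 encode large subunits with WD40 and helical repeats, and they rose less. Ift172 (ENSMUSG00000038564, chromosome 5), whose product acts at the ciliary tip where trains turn around, had 1368 and 1479 counts in wild-type and 2071 and 1565 in Foxn3KO. This was 55.2 and 54.4 CPM against 71.1 and 69.9 CPM, with no overlap. The log2 fold change was 0.36 (SE 0.053, edgeR adjusted p = 7.08e-05), or 1.29-fold.

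Ift80 (ENSMUSG00000027778, chromosome 3) had 2323 and 2448 counts in wild-type and 3272 and 2535 in Foxn3KO, the most reads of any member. Its level was 93.7 and 90.1 CPM in wild-type and 112 and 113 CPM in Foxn3KO. The lower Foxn3KO library is above the higher wild-type library. The log2 fold change was 0.30 (SE 0.048, edgeR adjusted p = 0.000205), or 1.23-fold, and 14.5% of tested genes had a larger one.

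**Figure D2:**
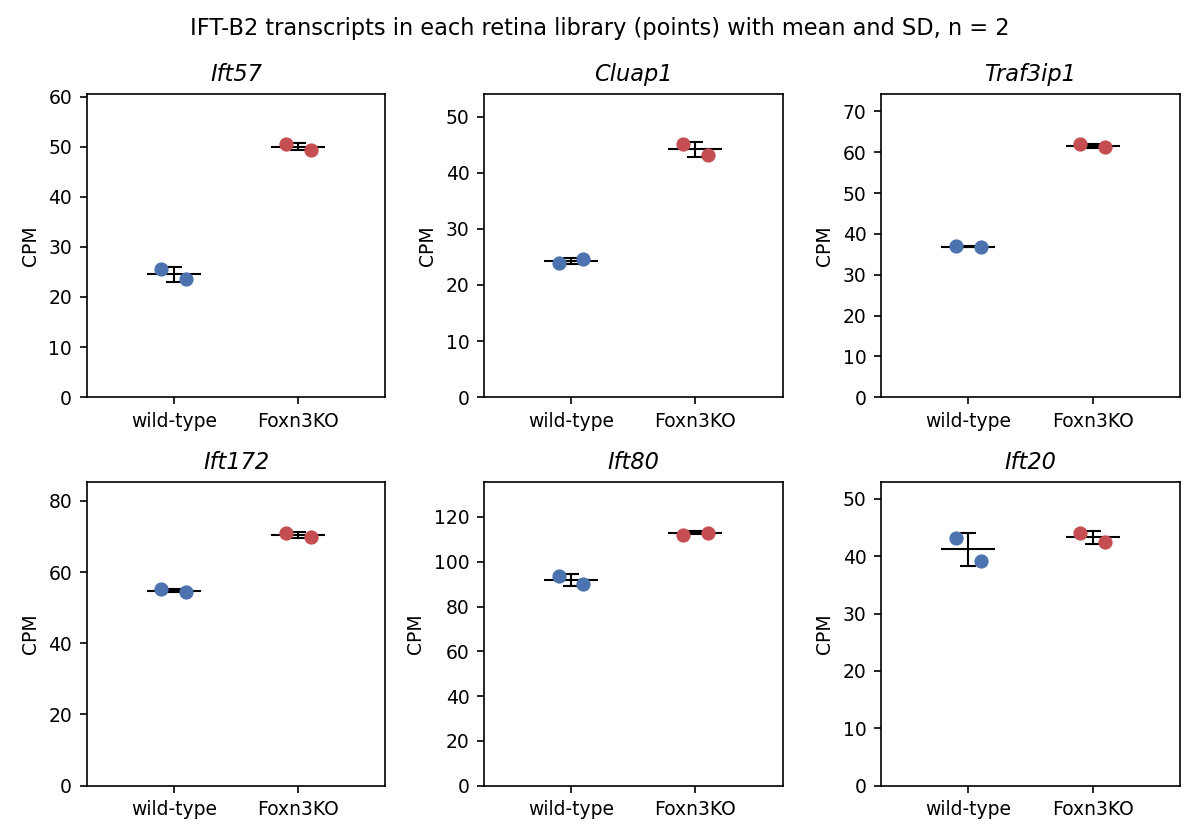
CPM of each member in each library (points; blue wild-type, red Foxn3KO), with the mean and SD of the 2 libraries of a group; each vertical axis starts at 0 and has its own scale. Both Foxn3KO points lie above both wild-type points for every member but Ift20, whose groups overlap.

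For the same 5 members both Foxn3KO libraries lay above both wild-type libraries, an arrangement found in 29.9% of all tested genes. The authors' deposited table gives log2 fold changes of 1.01 for Ift57, 0.85 for Cluap1, 0.72 for Traf3ip1, 0.35 for Ift172, 0.29 for Ift80 and 0.07 for Ift20. In the authors' deposited table the adjusted p of Ift20 was 0.694, and the largest of the other 5 was 7.56e-05, for Ift80. Features of the libraries that move with the labels were set beside these values. Without wild-type replicate 1, the library that differs in sex, the log2 fold changes were 1.09 for Ift57, 0.85 for Cluap1 and 0.74 for Traf3ip1. For Ift172 the value was 0.38 and for Ift80 it was 0.32. That fit leaves 1 wild-type library, the one with the higher lens markers. The summed lens markers differed between the wild-type libraries (9.32 and 79.9 CPM), and the members differed there by at most 1.10-fold. The parts of sex and of lens RNA in the difference between the groups were not tested.

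**Figure D3:**
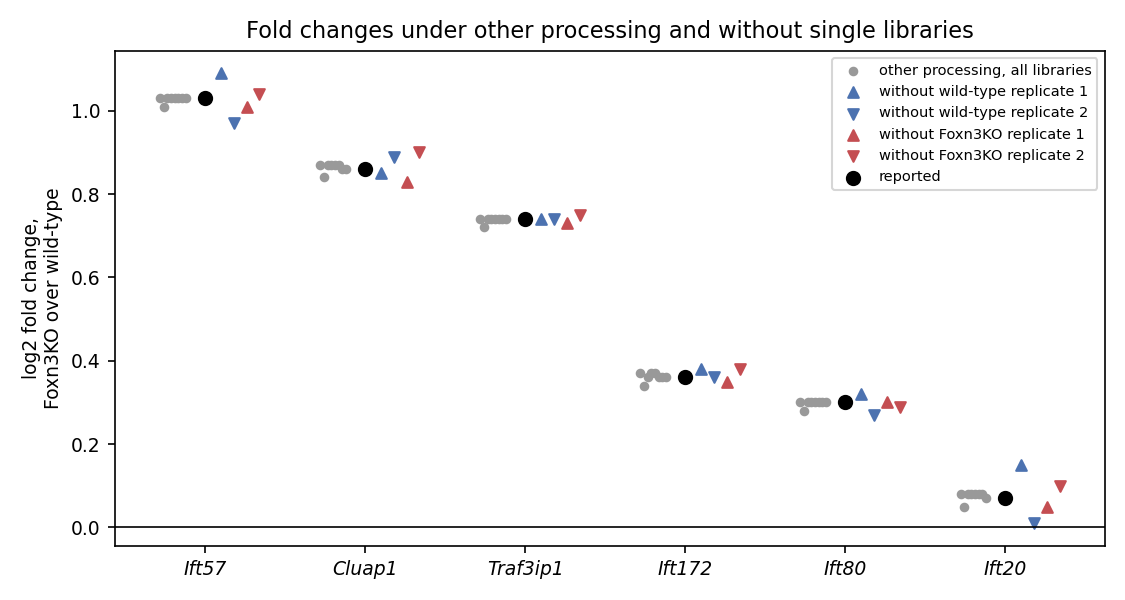
Log2 fold change of each member (Foxn3KO over wild-type) as reported (black), under other processing of all libraries (grey) and with 1 library left out (triangles). The order of the members from Ift57 to Ift20 is the same in the reported values and without each library, and the Ift20 values lie between 0.01 and 0.15.

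Because the log2 fold changes of the members differed in size, ratios between them within a library were compared. Such a ratio does not depend on library scaling, and its change does not depend on gene length. Relative to the mean log2 level of the 6 members, Ift57 changed by 0.47, Cluap1 by 0.30, Traf3ip1 by 0.18, Ift172 by -0.20, Ift80 by -0.26 and Ift20 by -0.49. Pairs of members were then compared, chosen after their values were seen. The ratio of Ift57 to its partner Cluap1 was 0.851 and 0.759 in wild-type and 0.891 and 0.911 in Foxn3KO, in FPKM (reads scaled by gene length and depth, as deposited). On the log2 scale that was -0.23 and -0.40 against -0.17 and -0.14, so the change of 0.16 was no larger than the gap between the wild-type libraries. The ratio of Traf3ip1 to its partner Ift20 was 0.352 and 0.387 in wild-type and 0.577 and 0.592 in Foxn3KO, a change of 0.66 on the log2 scale. The ratio of Ift172 to Ift80 was 1.11 and 1.13 against 1.19 and 1.16, a change of 0.07.

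Members of different pairs were compared in the same way. Ift57 relative to Ift20 went from 0.315 and 0.320 in wild-type to 0.610 and 0.620 in Foxn3KO, a log2 change of 0.95. The ratio of Cluap1 to Ift80, whose proteins touch in the complex, changed by 0.57, and that of Ift57 to Ift172 by 0.66. None of the 6 ratios overlapped between the groups. The pairs were chosen after the values of the members were seen, so this is no support beyond those values. The changes of Ift57 to Cluap1 (0.16) and Ift172 to Ift80 (0.07) were the smallest of them. The share of other gene pairs without overlap was not measured. With 2 libraries against 2, an exact two-sided permutation test of a ratio cannot give a p below 0.333, so these ratios are given as a description.

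**Figure D4:**
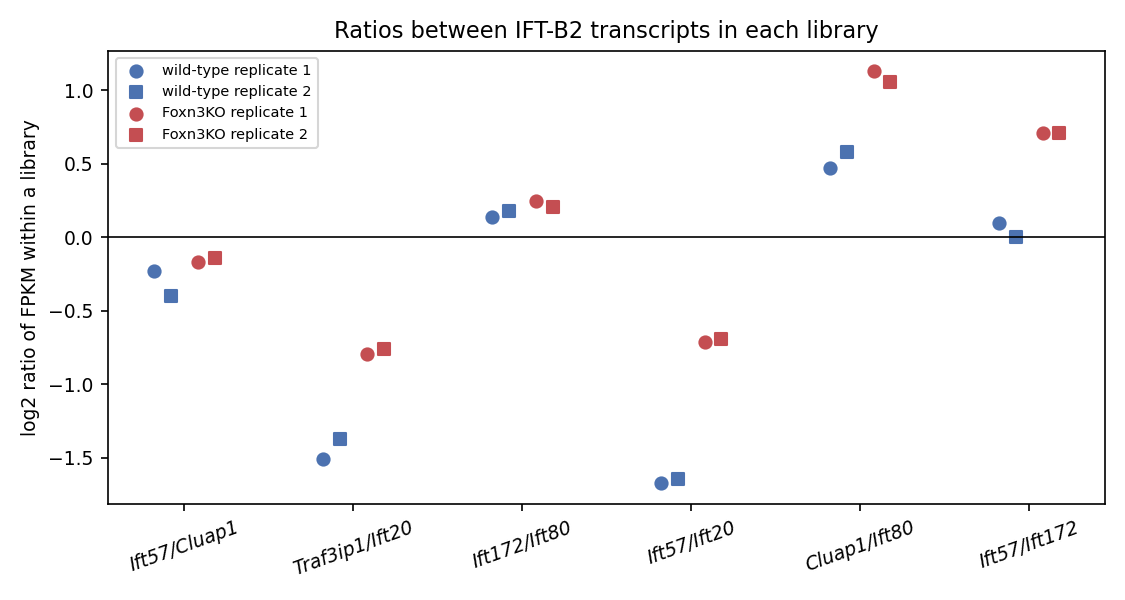
Log2 ratio of FPKM between pairs of members in each library (circles replicate 1, squares replicate 2; blue wild-type, red Foxn3KO). The Ift57 to Cluap1 and Ift172 to Ift80 ratios lie close together in all libraries, and the 4 other ratios are higher in Foxn3KO.

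Levels per gene length put Ift20 first in both groups. In wild-type the deposited mean was 26.9 ± 1.84 FPKM for Ift20, 10.6 ± 0.257 for Cluap1, 9.91 ± 0.00614 for Traf3ip1, 8.53 ± 0.483 for Ift57, 8.25 ± 0.0671 for Ift172 and 7.37 ± 0.193 for Ift80 (SD, n = 2 each). Ift57 and Ift172 overlapped there and no other neighbours in that order did. In Foxn3KO Ift20 had 28.3 ± 0.731 FPKM, Cluap1 19.3 ± 0.587, Ift57 17.4 ± 0.258, Traf3ip1 16.6 ± 0.129, Ift172 10.6 ± 0.131 and Ift80 9.06 ± 0.0479 (SD, n = 2 each), with no overlap between neighbours. Ift57 thus stood below Traf3ip1 in wild-type and above it in Foxn3KO.

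The place of Ift80 in that order depends on the gene length used. The deposited FPKM imply a length of 12.5 kb for Ift80, close to the 12.4 kb covered by the exons of all its annotated transcripts, whereas its longest coding transcript has 4.06 kb. Per kilobase of the longest coding transcript, a setting chosen after seeing the data, Ift80 had 22.6 ± 0.622 CPM per kb in wild-type (SD, n = 2) and came second to Ift20 with 36.1 ± 2.52 (SD, n = 2). For the other members the implied length was 1.07 to 1.34 times that of the longest coding transcript. Per kilobase of that transcript, Ift172 (10.1 ± 0.0954) also stood above Ift57 (9.43 ± 0.546) in wild-type (SD, n = 2 each). In FPKM their order was the other way, with overlap.

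The genes next to each member were read from GENCODE M21, to set each member beside its genomic neighbours. Ift20 lies head-to-head with Tnfaip1, which had 83.4 and 77.6 CPM in wild-type and 85.7 and 83.6 CPM in Foxn3KO, a log2 fold change of 0.07 (edgeR adjusted p = 0.363). Neither gene of that pair passed. Cluap1 lies head-to-head with 1700037C18Rik, which rose from 4.31 and 3.13 CPM to 6.42 and 4.96 CPM, a log2 fold change of 0.63 (SE 0.19, edgeR adjusted p = 0.0245). Ift80 lies head-to-head with the condensin subunit gene Smc4, which had a log2 fold change of -0.01 (edgeR adjusted p = 0.864).

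Other neighbours mostly did not rise with the member beside them. On the 3' side of Ift20, Tmem97 had a log2 fold change of -0.24 (edgeR adjusted p = 0.0123), and beside Ift172, Krtcap3 had -1.0 (edgeR adjusted p = 0.0275) from at most 2.18 CPM. Near Traf3ip1, the clock gene Per2 had -0.31 (edgeR adjusted p = 0.0469). Asb1 (0.12), Cd47 (-0.07), Fndc4 (-0.10), 1110032F04Rik (-0.07) and Nlrc3 (0.55, from under 1 CPM) did not pass, with edgeR adjusted p from 0.216 to 0.735. Myh15 was not analysed here. Annotated transcripts that share exon bases with Cluap1 (Gm20695, 1700016D08Rik and Gm15537) and with Ift57 (Gm15518) were not analysed here, and their reads could be counted in these members. The pseudogenes Gm15538 (0.34) and Gm15539 (-0.08), which lie inside Cluap1 without shared exon bases, did not pass either.

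The rest of the transport machinery was compared by complex. Of the 28 other transport genes tested, 24 were called higher and 1 lower, with a median log2 fold change of 0.78. A larger value than that of Ift57 was found for 8 of them, and a smaller one than that of Ift20 for 2. Among the 11 IFT-B1 core genes measured, 8 rose and 1 fell, with a median of 0.76. The largest were Ift70b (1.60) and Ift56 (1.22), and the lowest were Ift25 (-0.29) and Ift46 (0.11). Ift25, a small subunit that pairs with IFT27 and is dispensable for building the cilium, passed in edgeR (adjusted p = 0.0486) but not in DESeq2 (0.200), and Ift46 did not pass (edgeR adjusted p = 0.263).

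IFT-A and its adaptor Tulp3, which move membrane proteins and drive the return journey, had 7 of 8 genes called higher and a median log2 fold change of 1.05. Ttc21a, a paralog of the IFT139 gene Ttc21b, rose from 2.18 ± 0.294 to 54.2 ± 1.14 CPM (SD, n = 2 each), and its log2 fold change was 4.63 (edgeR adjusted p = 2.68e-16). Ift122 rose by 1.16, while Ttc21b itself had 0.02 (edgeR adjusted p = 0.889). Tulp3 had 0.16 and passed in edgeR (adjusted p = 0.0300) but not in DESeq2 (0.110). Reads of Ttc21a and Ttc21b could be shared in part, since the counting is not described.

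All 9 motor genes of kinesin-2 and dynein-2 were called higher, with a median log2 fold change of 0.76. Kif17, an accessory kinesin-2 motor, rose by 2.10 from 25 and 50 counts in wild-type, and the dynein-2 intermediate chain gene Dync2i1 rose by 1.37. The main kinesin-2 genes rose less, Kif3b by 0.50 and Kifap3 by 0.30. The IFT-B2 median of 0.55 is thus the lowest of the 4 medians, though the groups of genes are small and the difference between them was not tested.

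**Figure D5:**
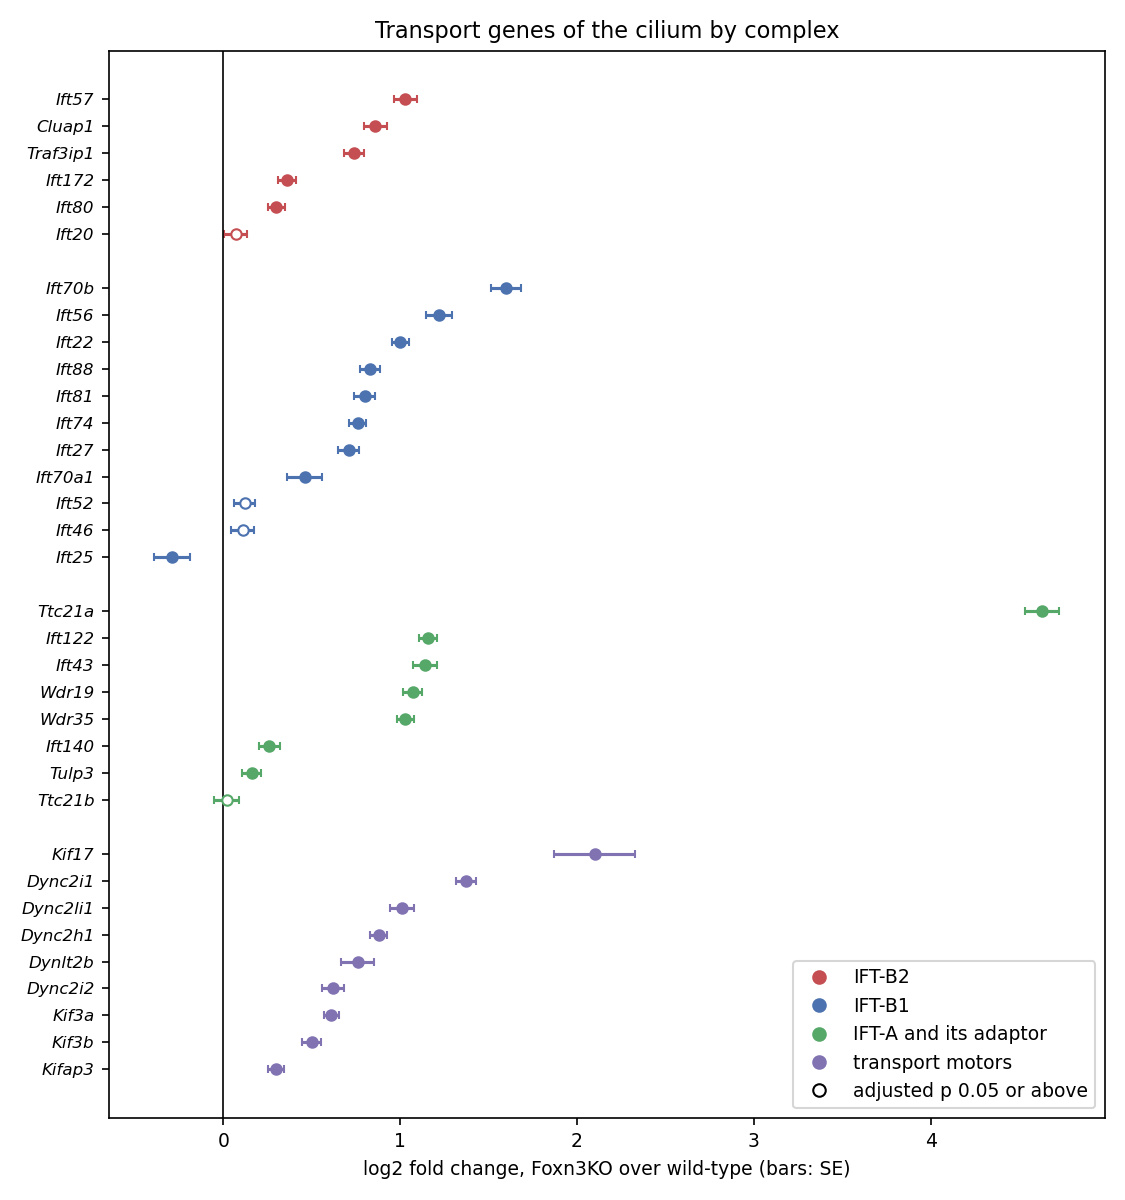
Log2 fold change (Foxn3KO over wild-type) with SE for the IFT-B2 members and the other tested transport genes by complex; open points did not pass an adjusted p of 0.05. IFT-B2 values run from 0.07 to 1.03, IFT-B1 from -0.29 to 1.60, IFT-A from 0.02 to 4.63 and the motors from 0.30 to 2.10.

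Regulators of cilia genes were read beside the members, since RFX factors and Foxj1 are known activators of such genes. Foxj1, the master regulator of motile cilia, rose from 8.01 ± 0.436 to 176 ± 1.58 CPM (SD, n = 2 each), and Rfx2 from 22.0 ± 2.47 to 58.6 ± 2.31 CPM (SD, n = 2 each). Rfx1 (0.46), Rfx3 (0.40) and Foxn3 (0.54) rose by less on the log2 scale. Rfx7 had -0.15 and passed in edgeR (adjusted p = 0.0217) but not in DESeq2 (0.0675), and Rfx5 had -0.18 (edgeR adjusted p = 0.143). The part of these regulators, or of the motifs, in the changes of the members was not tested.

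The motif letters were also counted over all tested genes with a promoter window, 11803 in number. Of the 593 genes with an X-box, 34.1% were called higher, against 12.6% of those without. For the GTTGCC core the shares were 24.6% of 1763 genes with it and 11.8% of the others. For the forkhead motif they were 12.2% with and 13.8% without, and for the short forkhead motif 15.2% of 5829 genes with it and 12.3% without. In the other transport lists the X-box was found for 3 of 10 IFT-B1 genes with a window, 1 of 7 IFT-A genes and 0 of 8 motor genes. Among all tested genes with a window the share was 5.02%. The core was found for 4 of 10, 3 of 7 and 4 of 8 of these genes, against 14.9% of the tested genes.

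Genes whose levels moved most like the mean of the 6 members over the 4 libraries were found by the root mean square distance of centred log2 CPM, among the 10839 genes that averaged 10 CPM or more. The nearest were Adcyap1r1 (0.0051), Bbs7 (0.012), Rhobtb2 (0.014), Mir670hg (0.017) and Cby1 (0.018), and their log2 fold changes were 0.55 to 0.58. Bbs7 encodes a BBSome subunit and Cby1 a protein of the ciliary base. With 4 libraries in 2 groups this measure mostly follows the size of the group difference.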

How the data were processed

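One table of the whole series was used. The authors deposited raw read counts per gene and library, without normalization; per the submitters' processing notes, the build was mm39 and DESeq2 was used. The aligner, counter, annotation and use of strand and of molecular identifiers are not given in the sources used here; the kit is strand-specific, per the labels' protocols. The authors also deposited FPKM values, which were counts times a constant per library over a gene length, and log2 fold changes and adjusted p-values, which are quoted only where named.

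Genes were filtered with filterByExpr (17300 of 18471 kept), scaled by TMM, and compared in edgeR 4.0.16 under R 4.3.3 (edgeR 4 quasi-likelihood fit, genotype as the only term, two-sided, Benjamini-Hochberg adjustment, threshold 0.05). The SE is the log2 fold change over the root of the F statistic. On simulated data for this comparison, 80.0% of 200 changed genes among 17300 were called, and 11 unchanged ones. The share was 64.8% at an absolute log2 fold change of 0.5, 73.7% at 1 and 98.6% at 2. Smaller changes were not simulated, and both groups were given the same spread. Replicates of a group differed beyond sampling noise (mean chi-square per gene 9.47 in wild-type and 1.85 in Foxn3KO, against 1) and come from separate embryos.

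The members and lists were chosen with earlier results of these data known. From each list of related genes the 2 largest and 2 lowest log2 fold changes are named, with all regulators. A marker of the retina list is not reported here. Neighbours and transcript lengths came from GENCODE M21 and promoter windows from RefSeq, both on GRCm38, so no coordinates of the files are given. Alternatives were RLE and total count scaling, other filters, DESeq2 1.42.0, limma-voom (limma 3.58.1), the earlier edgeR fit, a replicate term, a minimum log2 fold change of 1 and leaving out each library. A limit of 3 counts was 0.102 to 0.133 CPM, which covers counting error only. Figures were drawn with matplotlib 3.10.9.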

Additional observations from a re-analysis of the deposited data

How the results depend on the processing

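All 6 members kept their direction and their side of the threshold under every other scaling, filter, test and block and without each library. With all libraries, log2 fold changes ranged from 1.01 to 1.03 for Ift57, 0.84 to 0.87 for Cluap1, 0.72 to 0.74 for Traf3ip1, 0.34 to 0.37 for Ift172, 0.28 to 0.30 for Ift80 and 0.05 to 0.08 for Ift20. Ift20 had its lowest edgeR adjusted p, 0.103, without wild-type replicate 1. Fits without a library assume that the lone library of a group varies like the others; over all genes they gave 2323 to 5067 calls, against 3795, with 2328 and 2323 when a Foxn3KO library was left out. For DESeq2 the number was 2433, and the cause was not tested. By construction, asking for a log2 fold change of at least 1 kept fewer: 568 genes in all, 1 IFT-B2 member (Ift57), 3 IFT-B1 genes, 5 IFT-A genes (of 7), 3 motor genes, 0 partners and 2 regulators. Numbered replicates are not shown to be paired: the correlation over genes of the replicate differences in both groups was -0.00825, and with the replicate block 4222 genes and the same number of members, 5, were called. Depth limits none of the members, which had at least 592 counts in every library.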

Other observations

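Genes of proteins known to bind or recruit IFT-B or its subunits were also measured. Of 12 such genes, 6 were called higher in the libraries labelled Foxn3KO (edgeR quasi-likelihood test with Benjamini-Hochberg adjustment), none lower, with a median log2 fold change of 0.32. Traf3, whose product binds the TRAF3IP1 protein, rose by 0.74, the same rounded value as Traf3ip1 itself, from 45.9 ± 1.42 to 76.9 ± 1.08 CPM (SD, n = 2 each). Rabl2, a small GTPase gene whose product brings IFT-B to the ciliary base, rose by 0.90. Pik3r4 (0.42), Cep164 (0.37) and Cep83 (0.33) also rose; the latter 2 encode proteins of the distal appendages of the basal body. Arl13b had 0.24 and passed in edgeR (adjusted p = 0.0168) but not in DESeq2 (0.0890).

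Trip11, whose product GMAP210 anchors IFT20 at the Golgi, had 54.1 ± 1.06 CPM in wild-type and 50.8 ± 2.41 CPM in Foxn3KO (SD, n = 2 each). It did not pass, at -0.09 on the log2 scale (edgeR adjusted p = 0.310). Hip1, a partner of the Ift57 product, had -0.09 (edgeR adjusted p = 0.169), and Ttbk2 and Disc1 each had -0.11, with edgeR adjusted p of 0.140 and 0.900.

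Markers of other tissues were summed in each library. Choroid plexus, ependyma and airway markers, 9 of 15 measured, gave 14.0 and 17.0 CPM in wild-type and 29.8 and 29.1 CPM in Foxn3KO. Of these, 5 were called higher (Ccno, Folr1, Deup1, Otx1 and Aqp1) and 2 lower (Ttr and Clic6). Ccno alone went from 1.61 and 0.994 CPM in wild-type to 11.7 and 11.1 CPM in Foxn3KO, much of the rise in the sum. The airway genes Scgb1a1, Scgb3a2 and Krt5 were not among those measured. Pigment epithelium markers gave 88.4 and 116 CPM against 75.1 and 74.3 CPM, with 3 of 8 tested called lower and 0 higher. Vessel and mesenchyme markers gave 382 and 403 CPM against 384 and 379 CPM. Kdr alone averaged 366 CPM in wild-type and 351 CPM in Foxn3KO, so these sums say little about the other markers of this list. Of the 10 tested, 3 were called higher and 0 lower, with a median log2 fold change of 0.41. The 3 were Pecam1 (1.07, 22 to 52 counts per library), Tek (1.75, 5 to 25 counts) and Rgs5 (0.71, 58 to 111 counts). The other 7 did not pass, and their values ran from -0.80 for Foxc1 to 1.28 for Col3a1, with 0.33 for Cdh5. The part of all these tissue markers in the values of the IFT-B2 members was not tested.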
